A study of Mus musculus with 44 samples.

Results

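Fluorescent sorting of calvarial bone cell cultures at day 7 into GFP-positive and GFP-negative cells was followed in 3 experiments, Exp99, Exp101 and Exp103. Arrays were taken by their titles, as the Pos and Neg arrays of these experiments on Affymetrix array types A, B and C, which gave 18 of the 44 arrays of the series and 6 of its 18 RNA samples. The GFP-positive group held 3 RNA samples of cells that carried pOBCol3.6GFP and were sorted as fluorescent. The GFP-negative group held 3 RNA samples of cells with the same transgene that were sorted as not fluorescent, 1 from each experiment. Both groups came from osteoblast cultures of newborn mouse calvaria (the flat bones of the skull roof) labelled as 7 day. These were grown in DMEM with fetal calf serum and without additions. The GFP-negative cells thus differ from the GFP-positive ones by the sort and not by genotype or treatment. Day 7 is used here as a name. Whether 7 day is the age of the mice or the time in culture is not clear from the labels. They give no strain, sex or number of animals, and only the experiment names mark the samples of a group as different, and the spread that the p-values rest on may thus be technical. All 36701 probe sets were used, 12422 on array A, 12411 on B and 11868 on C. The 3 types carry different probe sets and were hybridised with the same RNA samples, which adds genes but no replicates.

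As background, the Col3.6 fragment is taken from the promoter of the type I collagen gene Col1a1 and switches GFP on in cells of the osteoblast lineage from an early stage, before matrix mineralises. Bone digests also release macrophages, muscle cells attached to the skull and cartilage cells, which do not belong to that lineage. A cell in which the reporter is off is sorted as GFP-negative, whatever its type, so that fraction can also hold osteoblast lineage cells.

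Among 20 lists of cell type and process genes, those of macrophages and skeletal muscle held the most members that were at least 2-fold lower in GFP-positive cells in all 3 experiments, 11 of 33 measured and 4 of 41, against 0.319% of all genes. Promoters of 5 genes are shown because the first 4 belong to these 2 lists, while the fifth, of a type I collagen chain, lay at a similar level in both fractions. Each run is the RefSeq window (GRCm38.p6) from 250 bases before to 50 after the start of the gene, on its own strand. Capitals mark 3 motifs, searched on both strands. GAGGAA holds the core letters bound by the myeloid factor PU.1. An E-box, the kind of site bound by the MyoD family, is written CAGCTG. The TATA box was searched as TATAAA. Ctss encodes a lysosomal protease and Mrc1 the mannose receptor, both of macrophages. Myl1 encodes a myosin light chain and Acta1 skeletal actin.
Ctss, chr3:95526536-95526835, + strand: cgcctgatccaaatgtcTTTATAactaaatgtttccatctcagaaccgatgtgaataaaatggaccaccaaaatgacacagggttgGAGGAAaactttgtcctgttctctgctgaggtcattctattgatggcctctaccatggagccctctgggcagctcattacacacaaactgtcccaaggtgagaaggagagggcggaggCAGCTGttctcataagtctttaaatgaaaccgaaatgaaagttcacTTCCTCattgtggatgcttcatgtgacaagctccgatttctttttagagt
Mrc1, chr2:14229164-14229463, + strand: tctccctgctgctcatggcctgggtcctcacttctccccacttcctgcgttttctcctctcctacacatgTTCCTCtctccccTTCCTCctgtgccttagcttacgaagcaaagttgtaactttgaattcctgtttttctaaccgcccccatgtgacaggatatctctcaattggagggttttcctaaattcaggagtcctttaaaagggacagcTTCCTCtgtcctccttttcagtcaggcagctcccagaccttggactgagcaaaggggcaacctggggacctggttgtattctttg
Myl1, chr1:66945007-66945306, - strand: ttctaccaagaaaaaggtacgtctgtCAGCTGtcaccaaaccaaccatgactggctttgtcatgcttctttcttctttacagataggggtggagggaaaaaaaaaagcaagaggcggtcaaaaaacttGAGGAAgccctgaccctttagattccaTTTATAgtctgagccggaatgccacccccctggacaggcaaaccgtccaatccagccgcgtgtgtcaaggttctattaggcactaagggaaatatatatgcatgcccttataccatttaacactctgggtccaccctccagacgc
Acta1, chr8:123894726-123895025, - strand: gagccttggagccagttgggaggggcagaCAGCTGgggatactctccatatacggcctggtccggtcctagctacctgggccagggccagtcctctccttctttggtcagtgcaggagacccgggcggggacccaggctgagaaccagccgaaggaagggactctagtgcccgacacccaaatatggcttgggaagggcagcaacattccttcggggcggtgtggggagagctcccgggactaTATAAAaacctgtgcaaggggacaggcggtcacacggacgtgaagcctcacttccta
Col1a2, chr6:4505368-4505667, + strand: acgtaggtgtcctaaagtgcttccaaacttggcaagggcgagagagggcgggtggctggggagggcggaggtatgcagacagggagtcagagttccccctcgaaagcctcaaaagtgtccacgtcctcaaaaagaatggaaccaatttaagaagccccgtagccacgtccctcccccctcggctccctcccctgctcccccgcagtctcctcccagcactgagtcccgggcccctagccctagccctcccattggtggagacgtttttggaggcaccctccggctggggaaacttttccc
The Ctss window held 2 matches of GAGGAA and the Mrc1 window 3. Myl1 and Acta1 had 1 CAGCTG each, as Ctss also did, and these 3 windows had 1 TATAAA each, while the Col1a2 window held none of the 3 motifs. Over the 28 RefSeq windows of 23 macrophage genes, GAGGAA occurred in 57.1%, against 28.3% of all 32851 windows. CAGCTG occurred in 48.7% of the 39 windows of 34 muscle genes, against 16.3% of all windows, and in 32.1% of the macrophage windows. A match is a description of letters and not a bound site. Col1a1, Lyz2 and the other genes are described by their values only.

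Before the values, the 3 array types were set against each other, because each holds genes of the same cell types read from the same RNA. Leukocyte genes (the macrophage list used below with further textbook leukocyte genes) had 67 probe sets past the filter on array A, with a median log2 difference, GFP-positive minus GFP-negative, of -1.1, -0.54 and -0.94 in Exp99, Exp101 and Exp103. On array C the 24 probe sets of such genes had medians of -0.92, -0.39 and -0.35. On array B the 22 probe sets had a median of -0.84 in Exp99, but 0.52 in Exp101 and 0.31 in Exp103. There, 10 were at least 2-fold lower and 1 higher in Exp99, while 0 were lower and 7 higher in Exp101, and 1 was lower and 4 higher in Exp103.

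**Figure D1:**
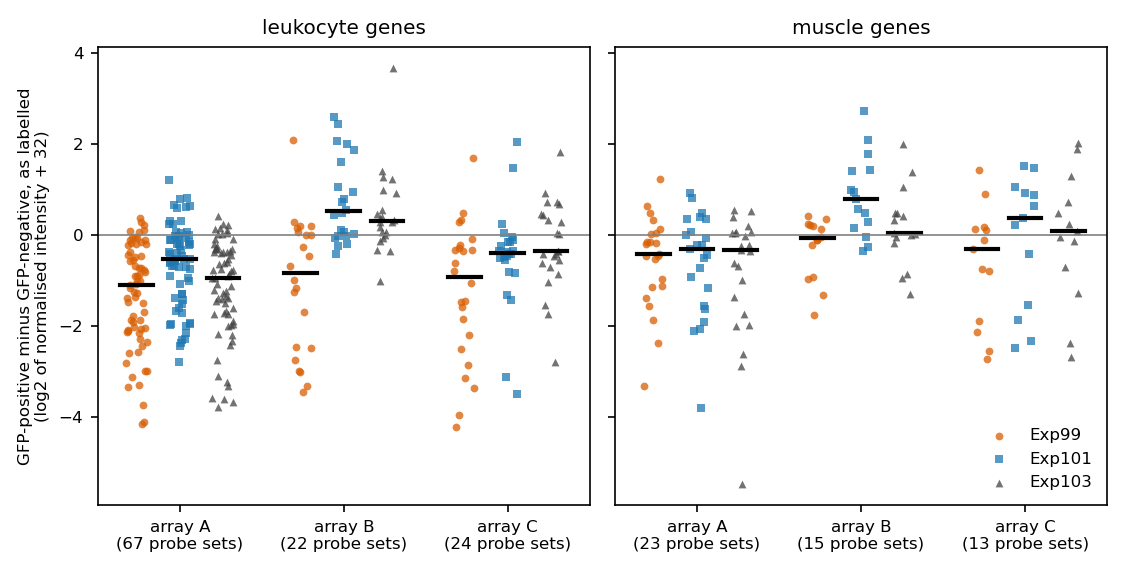
Log2 difference between the fractions as labelled (vertical axis) for each probe set of leukocyte genes (left) and muscle genes (right) on arrays A, B and C, by experiment, with black bars at the medians. Leukocyte medians lie below 0 on arrays A and C in all 3 experiments, and on array B at -0.84 in Exp99 but at 0.52 and 0.31 in Exp101 and Exp103.

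Single genes gave the same picture. F13a1, the factor XIII subunit made by macrophages, has a probe set on array B and another on array C. On array C it had 178, 280 and 265 in the GFP-positive samples of Exp99, Exp101 and Exp103, against 3250, 3511 and 2021 in the GFP-negative samples (normalised intensity). On array B it had 181, 628 and 2029 on the arrays labelled GFP-positive, against 1156, 89.3 and 129 on those labelled GFP-negative. The GFP-negative sample was thus the high one of each experiment on array C, and of Exp99 alone on array B. Pik3ap1, a signalling adaptor of B cells and macrophages measured on array B, had 43.4, 642 and 543 on the arrays labelled GFP-positive, against 729, 79.0 and 204 on those labelled GFP-negative. Mymk, the membrane protein that fuses muscle cells, had 347, 2528 and 532 against 1261, 354 and 240 on the same arrays. Across all probe sets past the filter, 34 on array B were at least 2-fold apart in every experiment, and 11 of these were lower in Exp99 and higher in Exp101 and Exp103, against 1 lower and 5 higher in all 3. On array A the corresponding counts were 36, with 1 of the mixed pattern, 29 lower in all 3 and 0 higher. Muscle genes had medians of -0.42, -0.30 and -0.33 on array A (23 probe sets) and -0.06, 0.79 and 0.04 on array B (15), but on array C (13) also -0.30, 0.38 and 0.09, so they part array B from array A and not from array C. For leukocyte genes the fractions on the B arrays labelled Exp101 and Exp103 go against those on both other types. Whether the labels of these 4 arrays are exchanged between the fractions was not tested. They were kept as deposited, no array was reassigned, and the direction of every value from them rests on the labels. Medians of the macrophage, muscle, cartilage and osteoblast lists are also given without array B. So are the counts of probe sets called, and of those at least 2-fold apart in all 3 experiments. The shares of all genes and most other counts and sums that use array B are given with it only.

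How far the fractions were alike was read from the correlation of log2 values across probe sets past the filter (above the array's own median on at least 3 of the 12 sorted RNA samples of the series). On array A, with 7042 such probe sets, GFP-positive and GFP-negative cells of the same experiment correlated with r = 0.958 in Exp99, 0.963 in Exp101 and 0.964 in Exp103. GFP-positive samples of different experiments correlated with r from 0.939 to 0.967 and GFP-negative samples with r from 0.924 to 0.962. Both samples of Exp101 correlated better with each other than with the same fraction of the other experiments, while the GFP-positive samples of Exp99 and Exp103 had the highest coefficient, 0.967. The share of array A probe sets at least 2-fold apart between the fractions was 3.59% in Exp99, 3.61% in Exp101 and 2.43% in Exp103. These coefficients describe probe sets that share an array design and are not independent, and they carry no test.

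**Figure D2:**
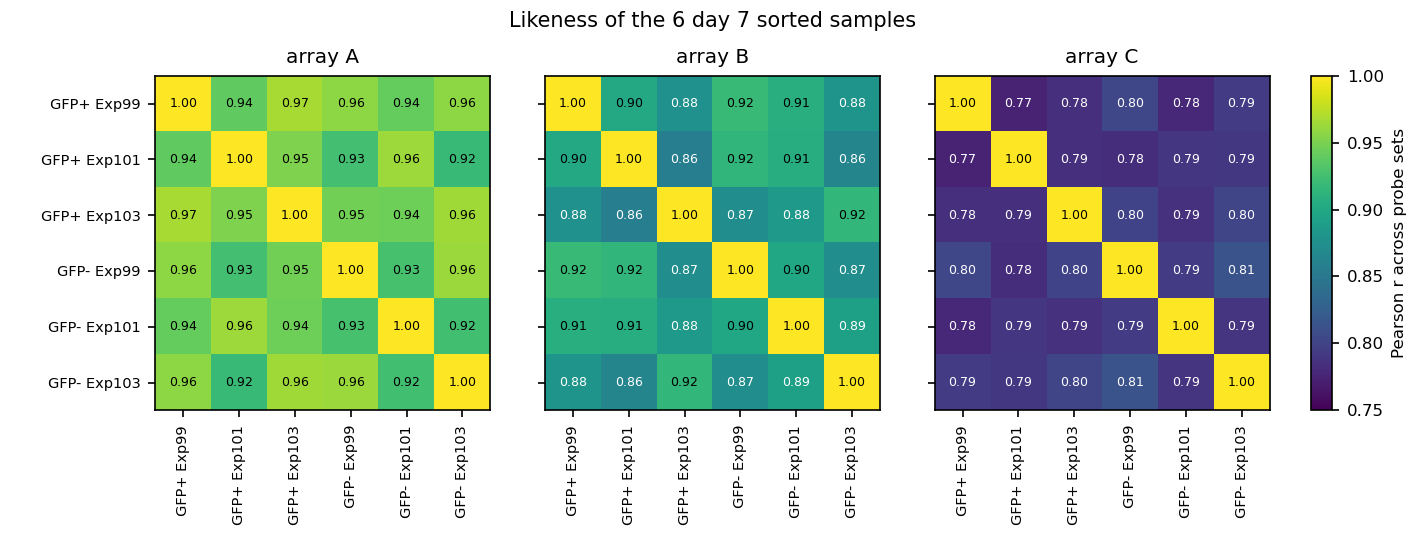
Pearson r between the 6 day 7 sorted RNA samples (rows and columns, GFP-positive before GFP-negative) across probe sets past the filter on arrays A, B and C. On array A the within-experiment pairs lie between 0.958 and 0.964, on B between 0.906 and 0.919 and on C between 0.79 and 0.803.

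Coefficients were lower on arrays B and C. Within an experiment r was 0.919, 0.906 and 0.916 on array B, above the 0.857 to 0.901 of the same fraction in different experiments, and 0.803, 0.79 and 0.802 on array C. On array C, 26.5%, 28.0% and 26.2% of the 7703 probe sets past the filter were at least 2-fold apart in Exp99, Exp101 and Exp103, against 6.0%, 6.6% and 6.6% of the 7354 on array B. The differences themselves repeated little between experiments. Across probe sets of array A they correlated with r = 0.01 between Exp99 and Exp101, 0.32 between Exp99 and Exp103, and 0.16 between Exp101 and Exp103. On array C all 3 coefficients lay between -0.01 and 0.01, and on array B between -0.12 and 0.0.

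No single probe set passed the test of GFP-positive against GFP-negative cells. limma with Benjamini-Hochberg adjustment called 0 of 22099 (0.0%), while at an unadjusted p under 0.05 there were 221 lower (1.0%) and 175 higher (0.792%) in GFP-positive cells. Fewer probe sets than the 1105 that make 5% of those tested reached that level. With so few samples, a count of 0 does not show that the fractions are equal. Array A alone gave 0 calls of 7042 (51 at an unadjusted p under 0.05), and arrays A and C without array B gave 0 of 14745 (338). Leaving out Exp106, a day 17 experiment that enters only the shared estimate of spread, gave 4 calls, all lower in GFP-positive cells: Lyz2, Ctss, F13a1 on array C and a probe set that matches several genes. With experiment as a block, which follows the pairing in the titles, the same fit gave 0 calls and a smallest adjusted p of 0.434 in limma.

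Another count, which carries no test, took probe sets at least 2-fold apart in the same direction in all 3 experiments. These were 80 lower (0.362%) and 48 higher (0.217%) in GFP-positive cells among the 22099, and without array B 79 lower and 43 higher. Array A held 29 of the lower and 0 of the higher ones. Array C held 50 lower and 43 higher, in a total of 334 probe sets that were at least 2-fold apart in each experiment in any combination of directions. Of the 334, 29 were lower in Exp99 and higher in Exp101 and Exp103, and 39 were the reverse. The 43 higher in all 3 experiments were thus close in number to a mixed pattern. With 1 probe set a gene, 35 named genes that passed the filter were lower in all 3 experiments, 24 of them on array A and 11 on array C, and 7 were higher, 6 on array C and 1 on array B.

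**Figure D3:**
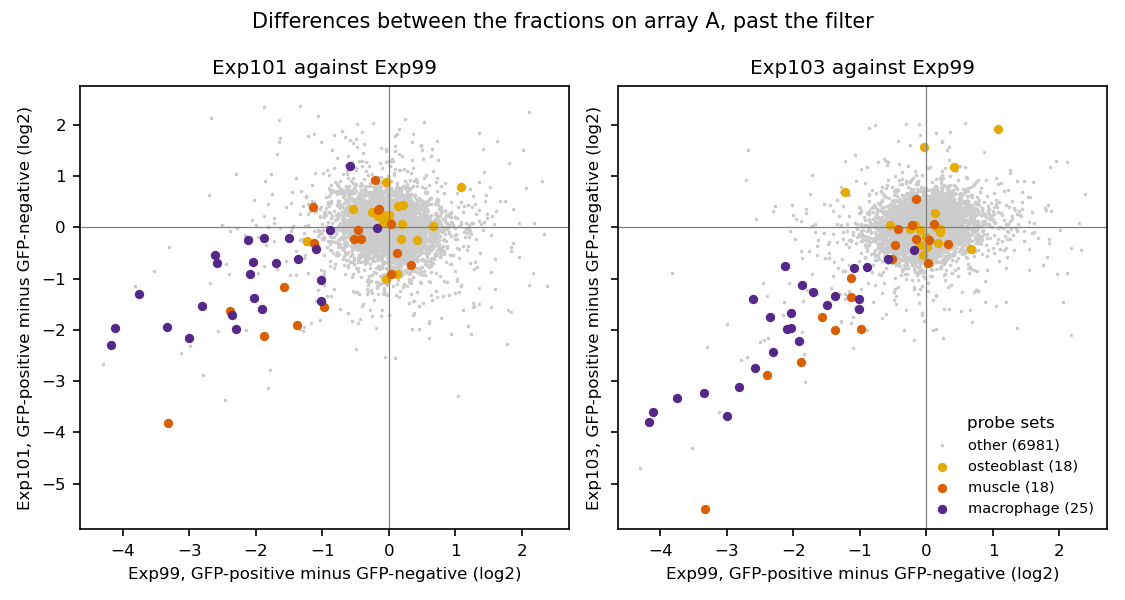
Log2 differences, GFP-positive minus GFP-negative, of the 7042 array A probe sets past the filter in Exp99 (horizontal axis) and in Exp101 or Exp103 (vertical axis). Macrophage (25 probe sets) and muscle (18) genes extend to the lower left in both panels, while osteoblast genes (18) lie around 0.

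Of the 35 genes, 11 were on the macrophage list, 3 on the muscle list and 1, Cnmd, on the cartilage list. No osteoblast gene was among them. Among the other 20 were Lilr4b (an inhibitory receptor of myeloid cells, log2 difference -3.06 ± 0.58, SD over the 3 experiments), Mmp12 (the macrophage elastase, -1.87 ± 0.36), the chemokine genes Ccl9 and Ccl12 (-1.94 ± 0.79 and -2.10 ± 0.88), Clec4d (a lectin receptor of macrophages, -2.40 ± 0.55) and Apoe (apolipoprotein E, abundant in macrophages, -2.30 ± 1.15). Mmp3, a matrix-degrading protease of stromal cells, had 2876, 320 and 297 in GFP-positive cells of Exp99, Exp101 and Exp103, against 10253, 3059 and 2631 in GFP-negative cells. Its groups overlapped, since the GFP-positive sample of Exp99 lay above the GFP-negative one of Exp103. The genes given so far are a selection of the 20. Others among them were Zfp772, Ppp1r14d, Igsf9, Zfp882, Ccdc85a and Krt76 on array C, and Traip and Clu on array A. The 20 as a set were not assigned to a cell type. The 7 higher genes were Dnali1, Hormad2, Clca2, Lrrc63, Fsip1 and Zfp455 on array C and Txndc11 on array B. Hormad2, a protein of meiotic chromosomes, had 2141, 1495 and 2229 in GFP-positive cells, against 505, 341 and 289 in GFP-negative cells. Txndc11, a thioredoxin-like protein of the endoplasmic reticulum, had 752, 711 and 696 on the arrays labelled GFP-positive, against 212, 135 and 186 on those labelled GFP-negative. Other probe sets of Txndc11 and Dnali1, none past the filter, did not share the direction, with mean log2 differences of -0.32 and -1.50 for Txndc11 and 0.05 and -0.60 for Dnali1. None of the 7 was on a list of cell type markers. On array C, where 6 of them lay, differences correlated between experiments with r from -0.01 to 0.01 only.

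Blood cells were looked at first through 33 measured macrophage and monocyte genes, 23 of which passed the filter. In RNA of a sorted fraction, fewer macrophages and less of their RNA per cell cannot be told apart. Their median log2 difference was -1.93 in Exp99, -0.65 in Exp101 and -1.39 in Exp103, where the median over all 15964 genes was 0.02, 0.00 and 0.01. In Exp99, 24 were at least 2-fold lower in GFP-positive cells, against 6.18% of all genes, and 0 were higher (5.67%). In Exp101, 12 were lower (6.29%) and 3 higher (6.22%), and in Exp103, 21 were lower (5.96%) and 1 higher (5.52%). In all 3 experiments together 11 were at least 2-fold lower (0.319% of all genes) and 0 higher (0.157%). For 18, every GFP-positive sample lay below every GFP-negative one, as it did for 3.45% of all genes, and for 0 every GFP-positive sample lay above (3.63%). F13a1 was the only member read from array B. Without it the medians were -1.92, -0.67 and -1.45, with 11 genes again at least 2-fold lower in all 3 experiments.

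**Figure D4:**
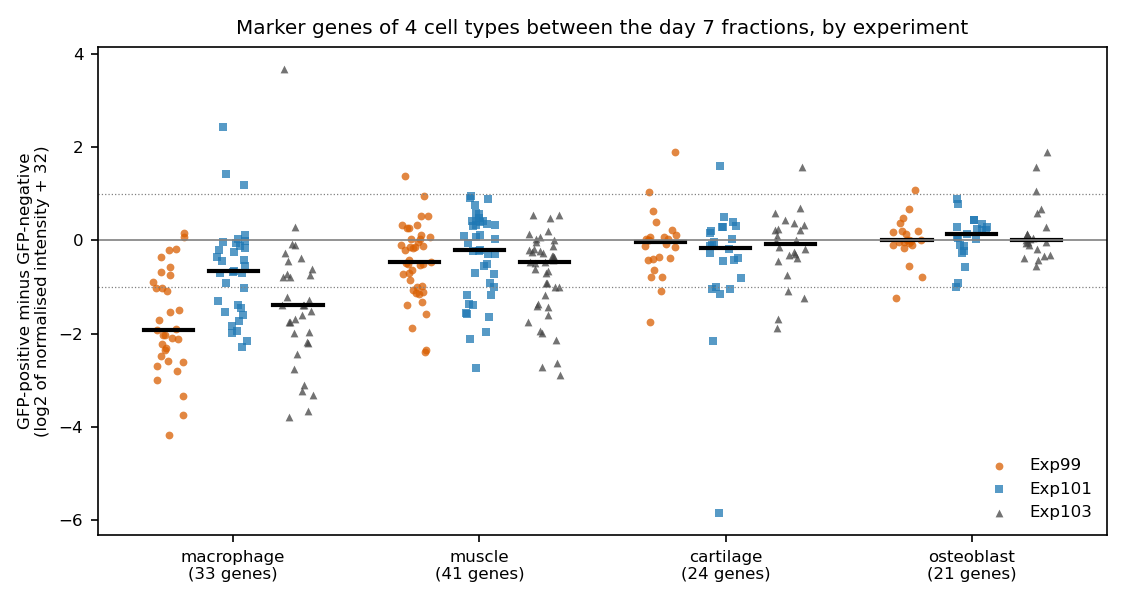
Log2 difference between the fractions (vertical axis) of each measured macrophage, muscle, cartilage and osteoblast gene in Exp99, Exp101 and Exp103, with black bars at the medians and dotted lines at 2-fold. The macrophage medians lie at -1.93, -0.65 and -1.39 and the osteoblast medians within 0.14 of 0.

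The macrophage genes were graded by experiment. Of the 33, 28 had a lower difference in Exp99 than in Exp101, and only 3 had their lowest difference in Exp101. The summed normalised intensity of the list was 12719, 11877 and 12463 in the GFP-positive samples of Exp99, Exp101 and Exp103, against 51819, 20903 and 35898 in the GFP-negative samples. The GFP-positive samples were thus close to each other, and the experiments differed in their GFP-negative samples. The ratio of the sums, GFP-positive over GFP-negative, was 0.245, 0.568 and 0.347, and 0.247, 0.54 and 0.292 without F13a1.

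Lyz2, which encodes the main lysozyme of myeloid cells, had 595, 813 and 463 in GFP-positive cells of Exp99, Exp101 and Exp103, against 11265, 4109 and 6878 in GFP-negative cells. The groups were far apart in each experiment, by a log2 difference of -4.17, -2.29 and -3.80. The fitted difference was -3.42 ± 0.52 (SE, n = 3 each), with an adjusted p of 0.194 in limma, which was 0.22 in the fit of the 6 day 7 samples alone and 0.0358 in limma without Exp106, a call lost when experiment was a block (adjusted p = 0.434 at the smallest). Ctss, the protease whose promoter is printed above, had 266, 308 and 219 in GFP-positive cells, against 2976, 1269 and 2323 in GFP-negative cells. Its fitted difference was -2.83 ± 0.61 (SE, n = 3 each, limma adjusted p = 1.0, and 0.0358 without Exp106, lost with the block as for Lyz2).

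Mrc1 had 49.9, 12.5 and 31.2 in GFP-positive cells, against 624, 166 and 772 in GFP-negative cells. The GFP-positive values lie near the lowest value of the files, which is 10, so the size of this difference (-2.94 ± 0.75, limma SE) depends on the pseudocount. Tyrobp, the signalling adaptor of myeloid receptors, had 78.7, 293 and 75.7 in GFP-positive cells, against 1460, 773 and 1043 in GFP-negative cells. Cd68, a lysosomal membrane protein, had 529, 275 and 369 against 2732, 1192 and 2132 in the same order, a difference of -2.24 with an SD of only 0.23 over the 3 experiments.

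**Figure D5:**
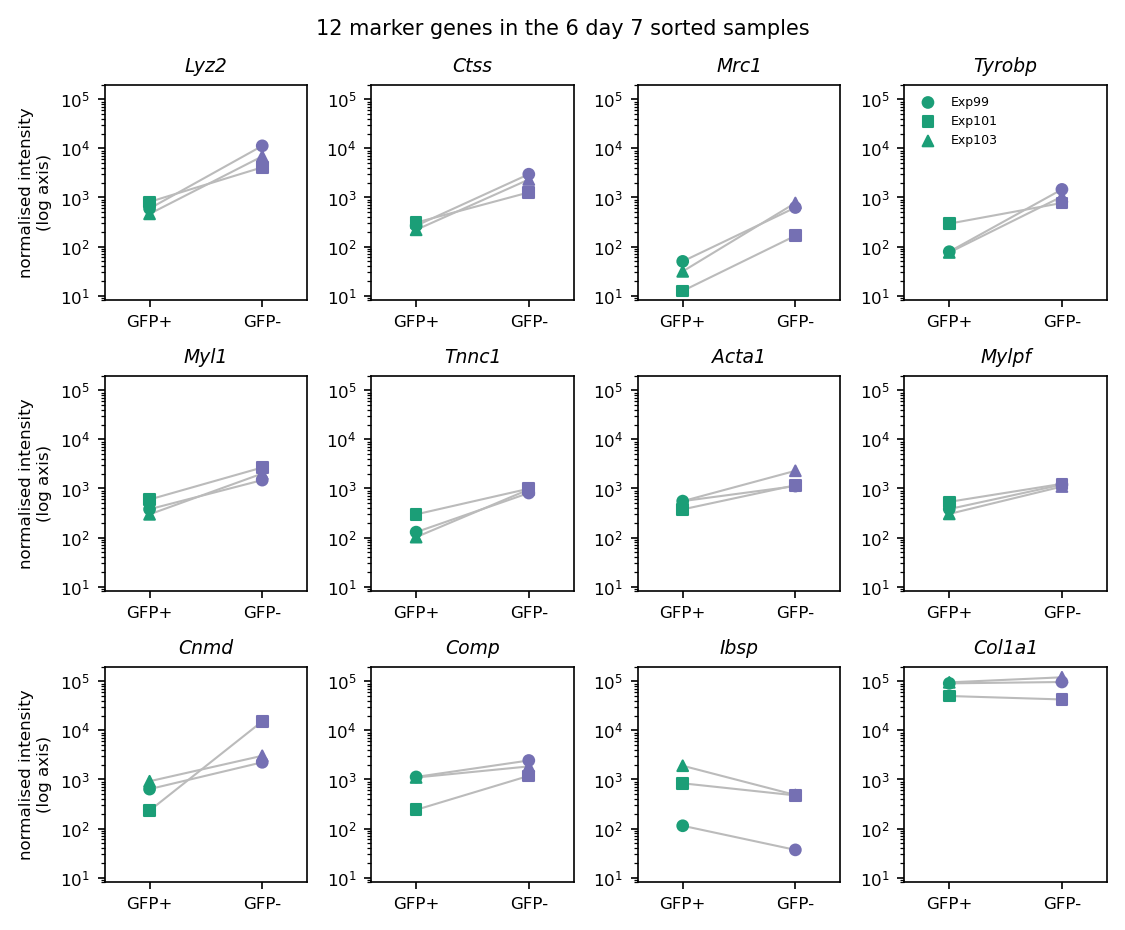
Normalised intensity (log axis) of 12 marker genes in the GFP-positive (left, green) and GFP-negative (right, violet) sample of Exp99, Exp101 and Exp103, with lines joining the fractions of an experiment. The 4 macrophage and 4 muscle genes lie lower in each GFP-positive sample than in any GFP-negative sample, and Col1a1 at a similar height in both.

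Complement genes were less uniform. C1qa, a chain of the first complement component made by macrophages, had 597, 404 and 248 in GFP-positive cells, against 4366, 1231 and 2377 in GFP-negative cells. Of the 2 probe sets of C1qb, a partner chain, the brighter one had log2 differences of -0.58, 1.20 and -0.61 and the dimmer one -4.11, -1.96 and -3.60, so the list's value for that gene rests on the choice of probe set. Spi1, which encodes PU.1, had 84.4, 168 and 167 in GFP-positive cells, against 680, 260 and 490 in GFP-negative cells. Ptprc, the CD45 antigen of all leukocytes, did not pass the filter. It had 19.1, 10.7 and 11.5 in GFP-positive cells, close to the lowest value of the files, and 162, 25.1 and 164 in GFP-negative cells.

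Members that did not separate included Cx3cr1 on array A (a chemokine receptor, -0.21 ± 0.22, SD over the 3 experiments, but -2.86, -0.11 and 0.04 on array C), Cd14 (the endotoxin co-receptor, -0.58 ± 0.45) and, without passing the filter, Aif1 and Pf4. Itgb2 and Cybb on array A did not pass either, with log2 differences of -0.20, -0.12 and -0.27 and of -0.67, 1.43 and -1.38. Fcgr3 and Itgam also overlapped between the fractions. Csf1r, the receptor for the macrophage growth factor, had 425, 442 and 395 in GFP-positive cells, against 1260, 516 and 1187 in GFP-negative cells, so that the fractions of Exp101 differed by -0.21 where those of Exp99 and Exp103 differed by -1.50 and -1.51.

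The lists of other blood cells were short and mostly dim. The medians over experiments were 0.32 for 11 granulocyte genes, 0.15 for 8 erythroid, 0.13 for 9 lymphoid, 0.15 for 11 mast cell and megakaryocyte and 0.14 for 8 antigen presentation genes of class II. In each of these lists 0 members were at least 2-fold apart in the same direction in all 3 experiments, where the share of all genes was 0.319% lower and 0.157% higher, so that a count of 0 is near the background. Between 3 and 4 members of each list passed the filter. The 9 osteoclast genes, of a cell derived from the macrophage lineage, had a median of 0.16, with 3 past the filter.

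Skeletal muscle was read from 41 measured genes, 17 of which passed the filter. Their median log2 difference was -0.47 in Exp99, -0.20 in Exp101 and -0.47 in Exp103. At least 2-fold lower in GFP-positive cells were 10, 10 and 12 genes in the 3 experiments, against 6.18%, 6.29% and 5.96% of all genes. At least 2-fold higher were 1, 0 and 0, against 5.67%, 6.22% and 5.52%. Of the 41, 4 were at least 2-fold lower in every experiment (0.319% of all genes). For 11, every GFP-positive sample lay below every GFP-negative one (3.45%). For 1, Myom1, which did not pass the filter, every GFP-positive sample lay above (3.63%), so that count is near the background. Ttn was the only member read from array B, and without it the medians were -0.48, -0.21 and -0.47. The summed intensity was 18349, 23766 and 23207 in GFP-positive samples, against 27720, 29547 and 37719 in GFP-negative samples, a ratio of 0.662, 0.804 and 0.615 in Exp99, Exp101 and Exp103.

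The 11 genes without overlap were Tnnc1, Myl1, Acta1, Mylpf, Myh3, Myh8, Tnnt2 and Tnni1 of the contractile filaments, the receptor subunit Chrna1, the glycolytic enzyme Pgam2 and the oxygen carrier Mb, myoglobin. Of these, Myh3, Myh8, Tnnt2, Chrna1, Pgam2 and Mb did not pass the filter on array A, where they were read. A probe set of Tnnt2 on array C, past the filter, overlapped, with log2 differences of -1.9, 1.52 and 2.03 in Exp99, Exp101 and Exp103. Other filament genes overlapped, among them Tnnc2, Tnnt1, Myh1, Myh7 and Ttn. Myl1 had 378, 596 and 297 in GFP-positive cells of Exp99, Exp101 and Exp103, against 1480, 2675 and 2012 in GFP-negative cells, with no overlap. Its fitted difference was -2.21 ± 0.46 (SE, n = 3 each, limma adjusted p = 1.0, and 0.573 in the fit of day 7 alone). Tnnc1, the troponin C of slow and cardiac muscle, had 129, 297 and 102 in GFP-positive cells, against 808, 990 and 953 in GFP-negative cells. Acta1 had 552, 375 and 551 in GFP-positive cells, against 1119, 1164 and 2290 in GFP-negative cells.

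Mylpf, a regulatory myosin light chain of fast muscle, had 381, 534 and 303 in GFP-positive cells, against 1197, 1243 and 1094 in GFP-negative cells on array A. Its probe set on array C gave log2 differences of -2.56, -1.88 and -2.37. Chrna1, the acetylcholine receptor subunit of the muscle endplate, did not pass the filter on array A, where it had 76.0, 43.1 and 40.6 in GFP-positive cells, against 238, 262 and 286 in GFP-negative cells. On array C it had 142, 169 and 147 against 736, 553 and 1121 in the same order. For Mylpf and Chrna1 both these arrays put every GFP-positive sample below every GFP-negative one. Tnni1, a slow muscle troponin, had 2 probe sets on array C that went opposite ways, with log2 differences of -0.80, -2.34 and -1.27 for one and of 1.44, 1.05 and 1.29 for the other, against -1.13, -0.30 and -0.99 on array A.

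Actc1, cardiac actin, which is also made by young skeletal muscle, shows how far 2 probe sets of a gene can differ. The brighter one had 5699, 6190 and 8286 in GFP-positive cells, against 8169, 7283 and 12648 in GFP-negative cells. The other had 36.8, 10.7 and 11.5 in GFP-positive cells, against 653, 573 and 1930 in GFP-negative cells, and was the 1 probe set called without a filter (log2 difference -4.21). Other members overlapped between the fractions. Myog, the factor that starts muscle differentiation, had log2 differences of 0.03, -0.92 and -0.69, Myod1 of -0.16, 0.34 and -0.23, and Ckm, the muscle creatine kinase, of 0.04, 0.07 and -0.25.

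The median and the ratio of sums were nearest to no difference in Exp101 for muscle as for macrophage genes. The lowest difference of a muscle gene fell in Exp103 for 20 of 41 genes, in Exp99 for 11 and in Exp101 for 10, and for macrophage genes in Exp99 for 16, in Exp103 for 14 and in Exp101 for 3, a contrast that was not tested. Myh3, the embryonic myosin heavy chain, had 12.6, 16.1 and 11.5 in GFP-positive cells, against 31.0, 112 and 252 in GFP-negative cells. These low values did not pass the filter.

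Cartilage genes did not separate the fractions as a list, and the largest differences, those of Cnmd and Comp, were read from array C. The median log2 difference over 24 measured genes, 16 of them past the filter, was -0.03 in Exp99, -0.15 in Exp101 and -0.07 in Exp103. At least 2-fold lower were 2, 6 and 4 genes, against 6.18%, 6.29% and 5.96% of all genes, and at least 2-fold higher 2, 1 and 1, against 5.67%, 6.22% and 5.52%. Without Sox9 and Ucma, the 2 genes read from array B, the medians were 0.02, -0.23 and -0.07. Cnmd, which encodes chondromodulin, a growth-regulating glycoprotein of cartilage, had 636, 232 and 920 in GFP-positive cells of Exp99, Exp101 and Exp103, against 2237, 15248 and 3036 in GFP-negative cells. It was lower in each experiment and by far the most in Exp101, with log2 differences of -1.76, -5.85 and -1.69 (limma -3.10 ± 0.85, SE, n = 3 each, adjusted p = 1.0).

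Comp, the cartilage oligomeric matrix protein, had 1126, 241 and 1096 in GFP-positive cells, against 2437, 1185 and 1846 in GFP-negative cells. Like Cnmd it is read from array C, where between 26.2% and 28.0% of probe sets differed by 2-fold in an experiment. On array A, Col9a1, a collagen IX chain, had log2 differences of 0.03, -0.44 and -1.24 and Col9a3 of -0.78, -0.04 and -0.44. Acan, the large aggregating proteoglycan, averaged 170 ± 66.0 in GFP-positive cells, against 243 ± 45.9 in GFP-negative cells (SD, n = 3 each), without passing the filter. Col2a1, the main collagen of cartilage, also did not pass and had 141, 59.8 and 48.0 in GFP-positive cells, against 52.2, 78.2 and 265 in GFP-negative cells. The defining collagen of the tissue was thus low in both fractions and changed sides between experiments.

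Osteoblast genes did not separate the fractions as a list. The median log2 difference over 21 measured genes, 17 past the filter, was 0.00 in Exp99, 0.14 in Exp101 and 0.01 in Exp103, and 0.01, 0.11 and 0.00 without the 3 genes read from array B. At least 2-fold lower were 1, 1 and 0 genes and at least 2-fold higher 1, 0 and 3, where the share of all genes was between 5.52% and 6.29% in each direction. In all 3 experiments 0 were so, against 0.319% lower and 0.157% higher of all genes, so these counts are near the background. Runx2, Sp7, Spp1 and Bglap, which are among the best known genes of this lineage, are not analysed here because no probe set was assigned to them alone.

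The type I collagen genes, among them Col1a1, the source of the reporter's promoter fragment, lay at similar levels in both fractions. Col1a1 had 90715, 50082 and 94984 in GFP-positive cells of Exp99, Exp101 and Exp103, against 96672, 42648 and 120546 in GFP-negative cells. The experiments differed more than the fractions did, since both samples of Exp101 lay below all the others. The fitted log2 difference was -0.07 ± 0.35 (SE, n = 3 each, limma adjusted p = 1.0). A second Col1a1 probe set gave 0.14, 0.41 and 0.01. Col1a2, the other chain of type I collagen, had log2 differences of 0.01, 0.24 and -0.38. Sparc, the bone matrix glycoprotein osteonectin, stayed within 0.09 of 0 in each experiment.

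Ibsp, bone sialoprotein, a matrix protein of mature osteoblasts, was the member with the largest positive difference. It had 114, 835 and 1903 in GFP-positive cells, against 36.8, 474 and 483 in GFP-negative cells. GFP-positive cells were higher in each experiment (log2 differences of 1.08, 0.78 and 1.91), but the level moved more between experiments than between fractions and the groups overlapped, with a fitted 1.26 ± 0.90 (SE, n = 3 each, limma adjusted p = 1.0). A second, dimmer probe set of Ibsp gave 0.42, -0.25 and 1.18. Dlx3, a homeobox factor of the lineage, had -0.04, 0.89 and 1.57, and Alpl, the alkaline phosphatase of mineralising cells, 0.21, 0.43 and -0.03. Dmp1, a matrix protein of osteocytes, had -1.23, -0.27 and 0.68. Pth1r, the receptor for parathyroid hormone, had 1083, 586 and 773 in GFP-positive cells, against 1126, 1205 and 1137 in GFP-negative cells. It was the 1 osteoblast gene of 21 whose GFP-positive samples all lay below the GFP-negative ones. This held for 3.45% of all genes, so that count is near the background.

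Lists that could mark other cells of the culture had medians nearer to 0 than the macrophage list. The median over experiments was 0.06 for 24 fibroblast and mesenchymal progenitor genes, 0.14 for 18 smooth muscle and pericyte genes, 0.11 for 16 endothelial genes, -0.20 for 11 adipocyte genes, -0.04 for 11 glia and neuron genes and 0.02 for both 11 epithelial and 23 cell cycle genes. By experiment the adipocyte median was -0.50 in Exp99, -0.30 in Exp101 and 0.13 in Exp103, the first 2 as low as those of muscle. In Exp101, 4 of the 11 adipocyte genes were at least 2-fold lower in GFP-positive cells (6.29% of all genes). For 2 of the 11, Fabp4 and Car3, every GFP-positive sample lay below every GFP-negative one (3.45% of all genes). In none of these lists was any member at least 2-fold apart in the same direction in all 3 experiments, against 0.319% lower and 0.157% higher of all genes.

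Each experiment also had large differences of its own, and most of them lay on array C. In Exp99 the 4 lowest differences among named genes past the filter were those of Lyz2, Tyrobp, Igsf9 and Adam8, the last a metalloprotease of leukocytes, with log2 differences of -4.17, -3.75, -3.63 and -3.53. Adam8, on array A, was also low in Exp103 (-4.30) and less so in Exp101 (-0.85). In Exp101 the lowest difference was that of Cnmd, followed by Ccdc30, Cpne7 and ccdc198 on array C, with -3.87, -3.82 and -3.55. Ccdc30 had 2.09 in Exp99, and Cpne7 and ccdc198 had differences between -0.29 and -0.08 in Exp99 and Exp103. In Exp103 the 4 highest differences included F13a1 on array B (3.68, against -2.48 in Exp99) and Slc25a18, also on array B, with 2071, 1566 and 2951 on the arrays labelled GFP-positive, against 2122, 2334 and 295 on those labelled GFP-negative. The place of both genes among the highest rests on the labels of the B arrays of Exp103, and with these turned both genes would lie lower, not higher, in GFP-positive cells of that experiment.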

How the data were processed

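RNA of 6 day 7 sorted samples (3 GFP-positive, 3 GFP-negative) had been hybridised to Affymetrix array types A, B and C. The deposited values were intensities, 1 per probe set and array, whole numbers on a linear scale with a lowest value of 10; how the authors summarised and scaled them: not given in the sources used here. Median deposited intensity of these 18 arrays was 457 to 642 (A), 820 to 907 (B) and 551 to 688 (C). The number of arrays limits the precision.

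Log2 of the intensity plus 32 was quantile normalised within array type over all arrays of that type, and intensities in the text are these values on the linear scale. GEO's platform annotation assigned 29131 of the 36701 probe sets to a single gene (15964 genes), 724 to several and left 6846 unnamed. Testing required a value over the median of the array on at least 3 of the 12 sorted RNA samples of the series. limma 3.58.1 in R 4.3.3 fitted group means to these 12 samples over all 3 array types (lmFit, eBayes with a variance trend, Benjamini-Hochberg over all probe sets). Lists, with 1 probe set a gene (array A before B before C, then the brightest), have no test. Differences are GFP-positive minus GFP-negative. The pipeline was run on simulated data with independent noise and no experiment effect. It called 39 of 100 probe sets changed by a log2 of 2, and 77 of 100 changed by 3. It also called 12 unchanged ones. At an unadjusted limma p under 0.05 lay 1170 unchanged probe sets, against 396 probe sets in the real data, so the simulated setting differs from the data. Named genes were the largest differences of each list, of each experiment and over all 3, those called in alternative fits, and 15 genes fixed by name, less those not analysed here; the array comparison and further genes were chosen after their values were seen. Members, lists and rule were chosen with earlier results of these data known, and the added leukocyte and muscle genes after the conflict on array B had been seen.

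Titles pair the fractions by experiment. After subtraction of group means, both fractions of an experiment correlated with 0.29, 0.50 and 0.42 on array A, 0.16, 0.11 and 0.38 on B, and 0.06, 0.06 and 0.02 on C. Experiment as a fixed or random block (statmod 1.5.0) was an alternative, as were a smaller and a larger pseudocount, values as deposited, other filters, day 7 alone and leaving out samples. No genome was used beyond the RefSeq promoter windows.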

Additional observations from a re-analysis of the deposited data

How the results depend on the processing

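limma calls numbered 0 in the fit as described and in 18 of its alternatives, among them each RNA sample left out in turn (0 to 0), and 1 without a filter, 2 without the variance trend and 4 without Exp106. With experiment as a replicate block the calls stayed at 0, fixed (720 at an unadjusted p under 0.05) or random (833, consensus correlation 0.394), with day 7 alone (1042) and without Exp106 (972), so the block removed the 4 calls made without Exp106 and changed no other call.

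The macrophage median of -1.22 ranged from -1.56 to -0.96 over all its alternatives and was -1.28 on arrays A and C without array B and -1.25 on array A alone (both chosen after seeing the data). The skeletal muscle median of -0.30 was -0.53 with values as deposited, and ranged from -0.46 to -0.32 with an experiment left out, lowest without Exp101. The cartilage median of -0.04 was -0.24 with values as deposited and -0.09 to -0.07 with an experiment left out, and that of osteoblast genes, -0.02, lay between -0.02 and 0.07 with an experiment left out. As deposited, the median of all genes was -0.14 in Exp99, 0.03 in Exp101 and -0.14 in Exp103. The 80 lower and 48 higher probe sets at least 2-fold apart in the same direction in all 3 experiments became, together, 83 with 4 times the pseudocount, 256 without a filter, 32 at the 75th percentile, 29 on array A alone and 490 to 507 with 2 experiments in place of 3, where fewer samples must meet the criterion. The mean correlation of the fractions on array A, 0.962, was 0.968 with 4 times the pseudocount and 0.966 without a filter or at the 75th percentile.

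Of 60 named genes tested, 52 kept their direction in all alternatives run. For the others, values that turned and the range over leaving out each sample were as follows. Col1a1 was 0.03 as deposited and ranged from -0.51 to 0.23 (0.08 without GFP-negative Exp99). Col1a2 ranged from -0.39 to 0.20, with 0.06 and 0.16 between. Alpl was -0.05 as deposited and ranged from -0.03 to 0.47. Dmp1 ranged from -0.64 to 0.18, Fos from -0.04 to 0.92, Slc25a18 from -0.07 to 1.36 and Sox9 from -0.12 to 0.47 (-0.07, -0.04). Krtap1-3 was 0.02 with a pseudocount of 8 and 0.06 as deposited, and ranged from -1.0 to 0.60 (0.06, 0.38, 0.52). The causes were not tested.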

Other observations

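Of the early response genes, which handling and dissociation of cells can switch on, Fos and Dusp1 lay higher in GFP-positive cells of Exp103. Fos had 2179, 3640 and 4591 in GFP-positive cells of Exp99, Exp101 and Exp103, against 2699, 4279 and 1117 in GFP-negative cells, and Dusp1, a phosphatase of the same response, had 3110, 4655 and 5742 against 3054, 4866 and 2557. They were the 2 of 14 such genes at least 2-fold apart in Exp103, where 5.96% of all genes were lower and 5.52% higher, and 0 were in Exp99 or Exp101. Xist, the RNA of the inactive X chromosome in female mice, had 4284, 3954 and 4915 in GFP-positive cells, against 3385, 2881 and 1650 in GFP-negative cells. Every GFP-positive sample thus lay above every GFP-negative one, as for 3.63% of all genes. The Y-linked Eif2s3y had log2 differences of 0.01, -0.22 and 0.49. Kdm5d, also Y-linked, had -1.61, -1.12 and 0.42 without passing the filter.

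Fabp4, the fatty acid binding protein of fat cells and macrophages, had 206, 81.1 and 190 in GFP-positive cells, against 421, 473 and 244 in GFP-negative cells. Pparg, the regulator of fat cell formation, differed by -2.56 in Exp101 and by -0.26 and 0.47 in Exp99 and Exp103. Ltf, lactoferrin of granulocytes, had log2 differences of 0.67, 1.15 and 1.34, and neither it nor Fabp4 passed the filter. Eif2s3y, Pparg and the level comparisons of Dusp1 were chosen after their values had been seen.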
